A study of Homo sapiens with 32 samples.

Results

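m6A peaks were described in 10 genes of the Hippo pathway: the coactivators YAP1 and WWTR1 (which encodes TAZ), their DNA-binding partners TEAD1, TEAD2, TEAD3 and TEAD4, the kinases LATS1 and LATS2, and the matricellular target genes CCN1 and CCN2. A peak was counted for a gene if it overlapped the gene body, the span from the first to the last annotated base in RefSeq on GRCh38.p14, by at least 1 bp. These 10 of 20033 protein-coding genes held 582 of the 474004 peaks in 16 lists, which is 0.123%. The lists came from MeRIP-seq, in which fragmented RNA is immunoprecipitated with an antibody against N6-methyladenosine (m6A) and enrichment over the input RNA is called as peaks. Untreated cells of 2 human kidney lines were used, the clear cell renal cell carcinoma (ccRCC) line 786-O and the immortalized proximal tubule line RPTEC. Each had 4 lines with 2 immunoprecipitated libraries per line. WT cells carried intact SETD2, SETD2KO-1 and SETD2KO-2 were knockout clones, and SETD2KO-1R was derived clonally from SETD2KO-1 cells that had been given back full-length FLAG-tagged SETD2. Libraries of SETD2KO-1 and SETD2KO-2 are called SETD2KO below, and those of WT and SETD2KO-1R SETD2-expressing, with 4 libraries of each in each cell line. Each knockout or rescue line was 1 clone, so that SETD2 status and clone cannot be told apart within a line, and nothing in the labels says that the 2 libraries of a line came from separate cultures. The p-values below therefore measure the spread between libraries, which may be technical.

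The Hippo pathway is a kinase cascade that restrains growth in response to cell density, polarity and mechanical load. Active LATS1 and LATS2 phosphorylate YAP and TAZ, which are then held in the cytoplasm or degraded. When the kinases are inactive, YAP and TAZ enter the nucleus, bind TEAD factors and raise transcription of genes such as CCN1 and CCN2. m6A is written on RNA during transcription, is often placed near stop codons and in last exons, and can alter the stability and translation of the RNA. SETD2 trimethylates histone H3 at lysine K36 over transcribed gene bodies, a mark reported to recruit the m6A writer complex.

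The lists held 19249 to 39670 peaks, with 32817.6 ± 4395 in 786-O and 26432.9 ± 4040 in RPTEC (SD, n = 8 each). The 10 genes took 0.0977% to 0.126% of the peaks of a 786-O library and 0.121% to 0.163% of those of an RPTEC library. The depth behind a list is unknown because no read counts were analysed, so a gene without a peak may carry less m6A, less RNA or too few reads, and these cannot be told apart. SETD2 itself had a peak in every library. In 786-O the WT line had a mean of 9.0 SETD2 peaks over its 2 libraries and the rescue line 8.0, while the knockout clones had 7.5 (SETD2KO-1) and 4.5 (SETD2KO-2). In RPTEC the WT and rescue lines had 8.5 and 10.5 and the clones 5.0 and 4.5. A peak on the transcript does not check the knockout. Of 10 kidney epithelial markers 7 had a peak, beside 67.0% of all protein-coding genes. PAX2, PAX8, KRT18 and GGT1 were called in all 16 libraries, and LRP2, AQP1 and SLC34A1 in none. CDH16, EPCAM and CUBN had only 4, 2 and 1 peaks over all libraries. Of 10 markers of other cell types 3 had a peak. Among these, the endothelial gene CDH5 had 1 peak in each of the 4 SETD2-expressing RPTEC libraries and none in the other 12 (exact permutation p = 0.0286, adjusted p = 1.0 by SETD2 status in RPTEC, where 1.41% of all genes had fewer peaks in SETD2KO without overlap), CD68 had 15 peaks in all and GFAP 10; their part in the results below was not tested.

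All 10 genes had a peak in at least 1 library, as did 67.0% of protein-coding genes. YAP1, WWTR1, TEAD1, LATS1 and LATS2 were called in all 16 libraries, which held for 34.5% of the genes with a peak. CCN1 was called in 14 libraries, TEAD4 in 15, TEAD3 and CCN2 in 10 each, and TEAD2 in 8. TEAD1, the longest of the genes at 270317 bp, had the most peaks, 172 over the 16 libraries. Per 100 kb of gene body and library, the short target genes CCN1 and CCN2 ranked first with 33.3 and 21.5 peaks, followed by LATS1 with 8.24, and WWTR1 was lowest with 2.14. Gene bodies include introns, so this density is per genomic length and not per length of mature RNA. It also counts peaks that only overlap a gene edge. Of the 17 CCN1 peaks, 14 crossed the edge and had their summits outside the gene. Of the 11 CCN2 peaks, 7 crossed it, 4 of them with summits outside.

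**Figure D1:**
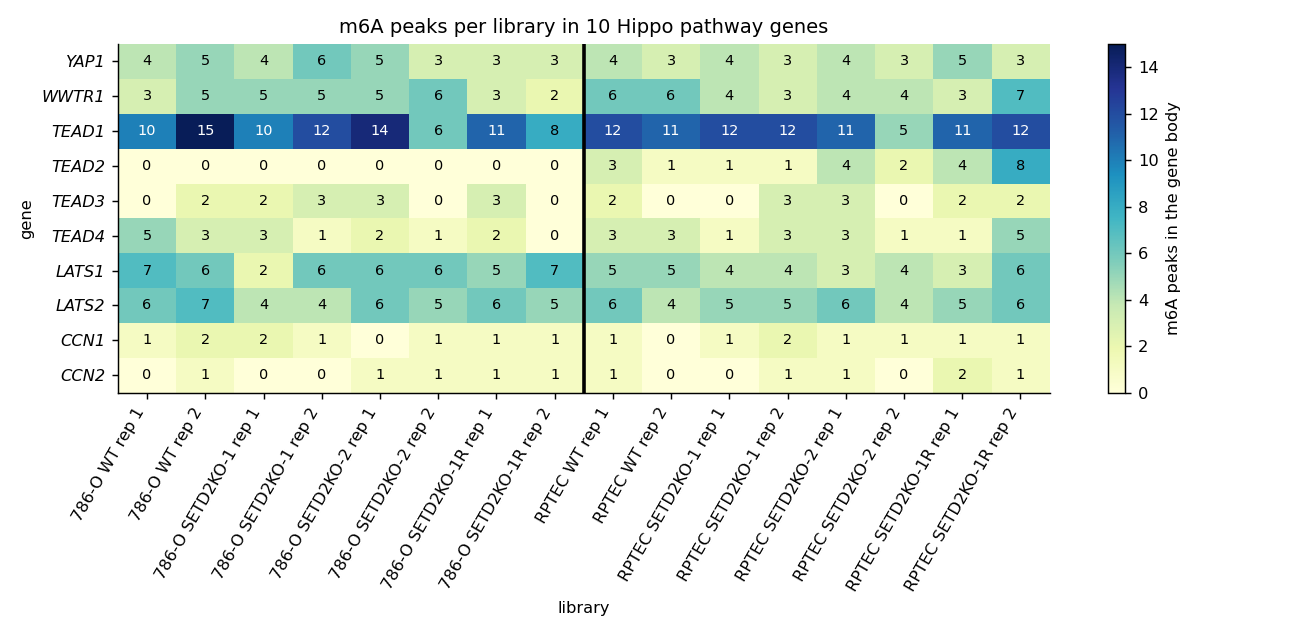
Number of m6A peaks in the gene body (colour and printed number) for 10 genes (rows) in each of 16 libraries (columns; 786-O left of the black line, RPTEC right of it). TEAD2 is at 0 in all 8 786-O libraries and at 1 to 8 in the 8 RPTEC libraries.

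TEAD2, which encodes one of the 4 TEAD factors that bring YAP and TAZ to DNA, was the only one of the 10 genes past the test between the cell lines. In RPTEC the WT libraries had 3 and 1 TEAD2 peaks, the rescue libraries 4 and 8, and the libraries of the knockout clones 1 and 1 (SETD2KO-1) and 4 and 2 (SETD2KO-2). In 786-O it had none in any of the 8 libraries. The groups did not overlap, and the mean of 3.0 ± 2.39 in RPTEC against 0 in 786-O passed the exact permutation test over libraries, two-sided (p = 0.000155, the smallest that 12870 arrangements can give, adjusted p = 0.00831 over 13418 genes). Peak scores have no stated scale, so each peak was given its rank percentile within its own list, where 100 is the highest score. The best TEAD2 peak of an RPTEC library ranked between 24.8 and 89.2 with a median of 68.4, a mean difference of 65.3 percentile points with a library without a peak set to 0 (exact permutation adjusted p = 0.00719). The calls were 8 of 8 libraries against 0 of 8 (Fisher's exact test, adjusted p = 0.0139). With no peak in any 786-O library, the 3 measures rest on the same absence and are not separate support for each other. TEAD2 passed in peak number, rank and calls without each library in turn, but when the lists were limited to the upper 50% of peaks by score the difference was 1.5 peaks and did not pass (exact permutation adjusted p = 0.127). With the 4 lines of each cell line as units, the smallest p is 0.0286 and TEAD2 did not pass (exact permutation adjusted p = 0.282 by peak number and 0.237 by rank). No gene passed there, since an adjusted p under 0.05 would need most genes to reach that floor. The names of the lists carry a different MeRIP label for each cell line, whose meaning is not given in the sources used here, so whatever the label marks cannot be told apart from cell line.

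None of the 10 genes passed the test as higher in 786-O by any of the 3 measures. Over all genes tested, 3.44% had more peaks in 786-O and 1.92% more in RPTEC, so 1 of 10 members higher in RPTEC is a single gene against a low background. For the best rank these shares were 3.81% and 2.47%, and for calls by Fisher's exact test 0.425% and 0.693%. The median difference of the 10 genes, 786-O minus RPTEC, was 0.0625 peaks, beside 0.25 over all genes.

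The TEAD2 peaks of RPTEC lay in 11 regions, formed by merging overlapping peaks of the 16 libraries. No region was shared by all 8 RPTEC libraries. The most recurrent, chr19:49356782-49357563, was called in 5 of them, 2 SETD2KO and 3 SETD2-expressing, with ranks from 51.9 to 89.2. It did not pass over all regions (Fisher's exact p = 0.0256, adjusted p = 0.811). Only regions called in every library of either cell line and none of the other passed, so a region called in 5 libraries could not. The regions chr19:49353602-49354411 and chr19:49359853-49360448 were called in 4 RPTEC libraries each. The gene body was therefore called in every RPTEC library, through peaks at differing positions. The regions chr19:49360927-49361189 and chr19:49361707-49362360 also overlap DKKL1, and RNA of the 2 genes cannot be told apart there. Without peaks that touch another gene, TEAD2 still passed between cell lines (786-O minus RPTEC -2.5 peaks, exact permutation adjusted p = 0.00932).

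**Figure D2:**
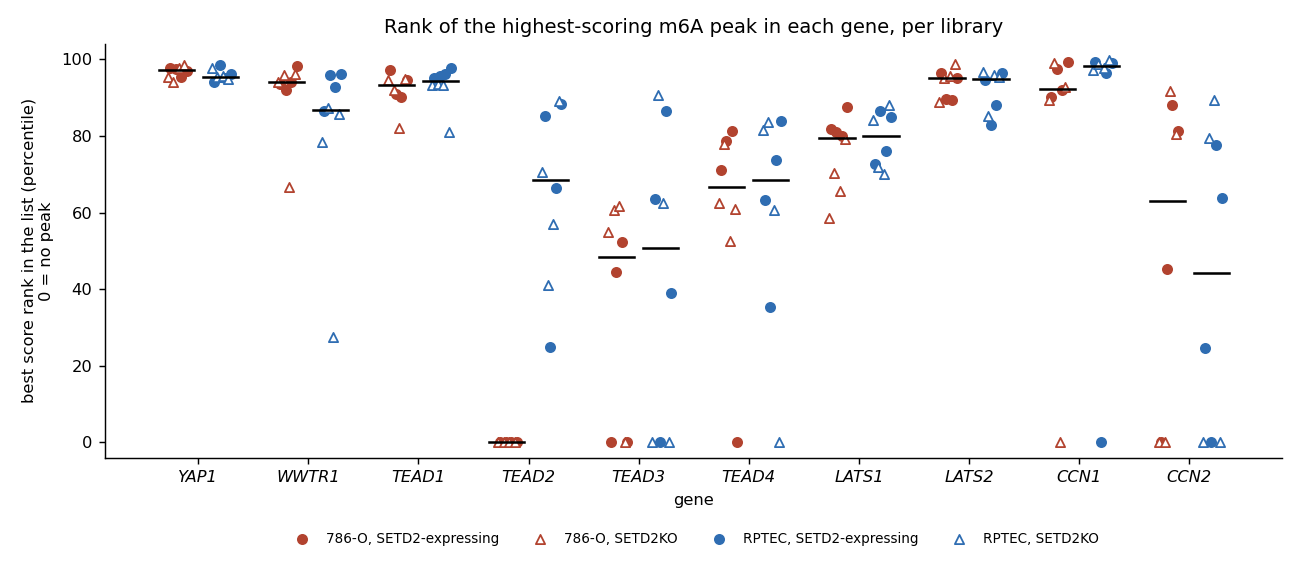
Rank percentile of the highest-scoring m6A peak in each gene (y axis; 0 stands for no peak) for the 10 genes (x axis), per library, with 786-O in red and RPTEC in blue, filled circles for SETD2-expressing and open triangles for SETD2KO libraries, and bars at the median of 8 libraries. YAP1 lies between 94.1 and 98.6 in all 16 libraries, while TEAD3, TEAD4, CCN1 and CCN2 include libraries at 0.

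YAP1, the coactivator whose nuclear entry is the output of the cascade, had a strong call in every library. Its best peak ranked from 94.1 to 98.6 in 786-O and from 94.1 to 98.5 in RPTEC. The 2 ranges overlapped almost fully (exact permutation adjusted p = 0.645). YAP1 was the only one of the 10 genes whose best peak stayed at or above the 90th percentile in all 16 libraries, as did 245 genes, 1.83% of those with a peak. This rests on the peak over its annotated start, described below. Without that peak the best YAP1 rank was 89.5 in 786-O WT replicate 2 and 81.4 in 786-O SETD2KO-2 replicate 1. It was 87.1 in 786-O SETD2KO-1R replicate 1 and 82.4 in RPTEC SETD2KO-1 replicate 2. The YAP1 peak number was 3 to 6 with a median of 4.0 in 786-O and 3 to 5 with a median of 3.5 in RPTEC.

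These peaks fell in 11 regions, of which 3 were called in all 16 libraries and the other 8 in 1 to 3 libraries each. The region chr11:102109898-102111025 covered the annotated start, with a median rank of 95.0. Its summits lay outside the gene in 14 of 16 libraries. The region chr11:102176383-102177158 lay 53.6% to 54.2% of the way along the gene and ranked 75.7 at the median. The region chr11:102229457-102229986, 96.8% to 97.2% along, ranked 94.7. Thus a start peak and a peak close to the end of the gene ranked about alike, and the one between them lower. The start region also overlaps YAP1-DT, a divergent transcript. The lists carry no strand, so RNA of the 2 genes cannot be told apart there. Without peaks that touch another gene, the YAP1 difference in best rank between cell lines went from 0.767 to -1.74 percentile points, neither past the test (exact permutation adjusted p = 0.8 without them).

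WWTR1 encodes TAZ, the paralog of YAP. It had 2 to 6 peaks with a median of 5.0 in 786-O and 3 to 7 with a median of 4.0 in RPTEC. The ranges overlapped (exact permutation adjusted p = 1.0). Its best peak was at a median rank of 94.0 in 786-O and 86.8 in RPTEC, with 1 low library in each, 66.7 in 786-O SETD2KO-2 replicate 1 and 27.6 in RPTEC SETD2KO-2 replicate 1. Both of these lacked the most recurrent region, chr3:149520916-149521259, which was called in 12 libraries at 98.1% to 98.2% of the gene with a median rank of 93.3. In 786-O, 3 of 4 SETD2KO and 4 of 4 SETD2-expressing libraries called it. In RPTEC it was 1 of 4 SETD2KO and 4 of 4 SETD2-expressing libraries. The share of all regions with such a split was not counted. RPTEC SETD2KO-1 replicate 2 and SETD2KO-2 replicate 2 also lacked the region, with best WWTR1 ranks of 87.2 and 85.7.

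TEAD1 had 6 to 15 peaks in 786-O (median 10.5) and 5 to 12 in RPTEC (median 11.5), with a mean of 10.8 in each cell line. Its 37 regions included 4 called in at least 12 libraries, chr11:12710316-12711259, chr11:12763937-12764277, chr11:12773874-12774475 and chr11:12829716-12830216, each in 13 libraries. The second of these carried the highest ranks, 94.7 at the median, and the third ranked 32.4. The last also overlaps LOC107984313, and RNA of the 2 genes cannot be told apart there. TEAD3 was called in 5 libraries of each cell line and had at most 3 peaks in a library. Its most recurrent region, chr6:35474184-35475179, lay 93.3% to 97.5% along the gene in 9 libraries. TEAD4 was missing from 1 library, 786-O SETD2KO-1R replicate 2, and had 1 to 5 peaks in the others. Its leading region, chr12:3040197-3041137, was called in 14 libraries at the higher-coordinate edge of the gene, with a median rank of 71.5. TEAD1, TEAD3 and TEAD4 thus had peaks in both cell lines, and none of the 3 passed the test between them (exact permutation adjusted p = 1.0 for each in peak number).

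LATS1, the kinase that phosphorylates YAP and TAZ, had 2 to 7 peaks in 786-O (median 6.0) and 3 to 6 in RPTEC (median 4.0). The ranges overlapped, and the mean of 5.62 ± 1.6 against 4.25 ± 1.04 did not pass (SD, n = 8 each; exact permutation p = 0.0904, adjusted p = 0.363). With the same number of peaks taken from each list the difference was 0. The regions chr6:149680062-149680708 and chr6:149683327-149684842 were called in all 16 libraries, 62.4% to 63.5% and 55.5% to 58.0% along the gene, and chr6:149661816-149662396, near its end, in 15. LATS2, its paralog, had 4 to 7 peaks in 786-O and 4 to 6 in RPTEC, and its best peak ranked from 82.8 to 98.7 over the 16 libraries. It had 5 regions in at least 12 libraries. The region chr13:21045839-21046485, 17.1% to 17.8% along, was called in all 16. The region chr13:20983356-20984066, 87.5% to 88.3% along, was called in 15 and had the highest median rank of the 5, 95.0. The other 3 were chr13:20974489-20975546, chr13:20988029-20988361 and chr13:20988537-20989525. Both kinases therefore had recurrent peaks within the gene and towards its end, and neither had a recurrent peak at its start.

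**Figure D3:**
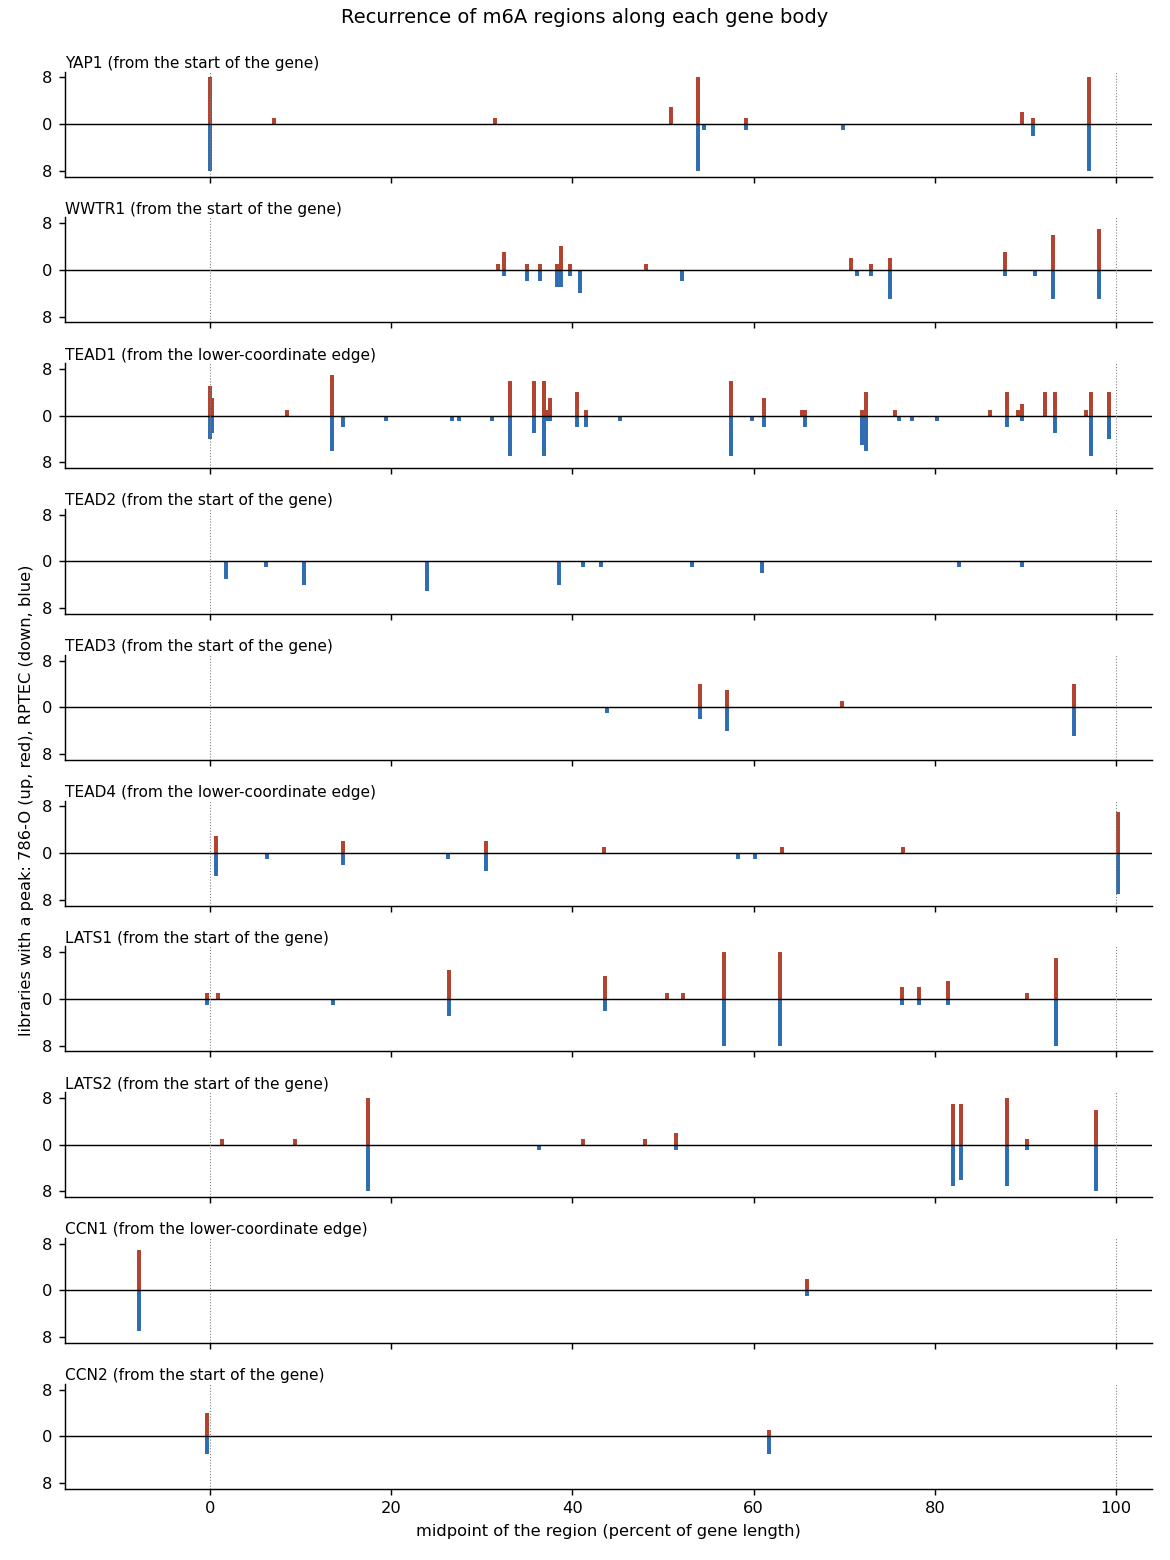
Regions along each of the 10 gene bodies (x axis, midpoint in percent of gene length, from the start where the strand is known and otherwise from the lower-coordinate edge; dotted lines mark the gene edges), with the number of libraries that called each region in 786-O (red, upwards) and RPTEC (blue, downwards). The 6 regions called in all 16 libraries are in YAP1, LATS1 and LATS2, and TEAD2 has bars only for RPTEC.

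The 10 genes held 123 regions of 99514 in the series. Of these, 48 were called in 1 library, 39.0% beside 37.2% of all regions. In at least 12 libraries 18 were called, 14.6% beside 11.6% of all regions, and 6 of these 18 in all 16, 4.88% beside 4.24%. None passed the test between cell lines, which 0.175% of all regions passed as more often called in 786-O and 0.152% in RPTEC. Those were called in every library of either cell line and none of the other. Only that split could pass (Fisher's exact test, lowest adjusted p = 0.0476), and no member region had it. In the genes with known strand, 23.96% ± 4.61 of the peaks fell in the last 10% of the gene (SD, n = 16 libraries) and 22.73% ± 1.46 did so over all protein-coding genes measured. The first 10% held 9.05% ± 4.06 beside 14.45% ± 1.92.

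The secreted proteins CCN1 (CYR61) and CCN2 (CTGF), widely used as readouts of YAP activity, are encoded by genes of only 3190 and 3197 bp. CCN1 had 1 peak in most libraries, 2 in 786-O WT replicate 2, 786-O SETD2KO-1 replicate 1 and RPTEC SETD2KO-1 replicate 2, and none in 786-O SETD2KO-2 replicate 1 and RPTEC WT replicate 2. Wherever it was called, its best peak was among the higher ranked, from 89.5 to 99.8. All 14 of these peaks belonged to 1 region, chr1:85580122-85580899, which straddles the lower-coordinate edge of the gene. Only 107 to 139 bp of each peak lay inside the gene body, and all 14 summits lay outside it. The inner end of the peak varied little. Its outer end did not: it reached 139 to 214 bp beyond the gene in the 7 libraries of 786-O, and in RPTEC 134 to 169 bp in 3 libraries and 562 to 639 bp in 4, of which 3 were SETD2KO. A region inside the gene, chr1:85582694-85583028, was called in 3 libraries at ranks of 2.12 to 26.2.

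CCN2 had 5 libraries with a peak in each cell line. In 786-O these were WT replicate 2 and both libraries of SETD2KO-2 and of SETD2KO-1R, with ranks of 45.4, 91.8, 80.5, 88.1 and 81.2. In RPTEC they were WT replicate 1, SETD2KO-1 replicate 2, SETD2KO-2 replicate 1 and both libraries of SETD2KO-1R, with ranks of 24.6, 79.5, 89.5, 77.6 and 63.9. SETD2KO-1 was the only 786-O line without a call, and SETD2KO and SETD2-expressing libraries overlapped in both cell lines. The region over the annotated start, chr6:131951181-131951581, was called in 7 libraries, and 4 of the 7 summits lay outside the gene. The region within the gene, chr6:131949054-131949747, was called in 4. Both overlap CCN2-AS1, and RNA of the 2 genes cannot be told apart.

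The start is known for 7 of the 10 genes. Peaks covered it in all 16 libraries for YAP1, in 7 for CCN2 and in 2 for LATS1, and in none for WWTR1, TEAD2, TEAD3 and LATS2 at the outermost annotated start. Over 10959 genes with a known start and a peak, 1.3% had it covered in all 16 libraries and 44.8% in at least 1. The 250 bases before the start of YAP1 (chr11:102110197-102110446, plus strand) and of CCN2 (chr6:131951373-131951622, minus strand) are shown 5′ to 3′ from RefSeq on GRCh38.p14, because peaks of these lists reached into both. Capitals mark the core TEAD motif GGAATG, searched with its reverse complement CATTCC on both strands.

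YAP1: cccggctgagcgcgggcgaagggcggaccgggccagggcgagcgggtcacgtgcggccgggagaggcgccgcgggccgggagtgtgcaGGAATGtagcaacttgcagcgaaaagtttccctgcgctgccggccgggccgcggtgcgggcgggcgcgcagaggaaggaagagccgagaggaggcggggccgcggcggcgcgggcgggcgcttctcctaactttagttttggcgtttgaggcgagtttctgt
CCN2: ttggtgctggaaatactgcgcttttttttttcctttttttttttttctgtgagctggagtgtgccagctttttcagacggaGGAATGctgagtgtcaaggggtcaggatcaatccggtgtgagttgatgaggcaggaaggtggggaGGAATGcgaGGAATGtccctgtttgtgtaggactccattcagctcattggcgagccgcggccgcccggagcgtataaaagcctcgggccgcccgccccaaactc

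The CCN2 sequence held 3 matches, with their first bases at -169, -104 and -95, where -1 is the base before the start, and the YAP1 sequence held 1, at -162. The other 5 genes with a known start had no match in this window. Over 22198 windows of the same length, 10.5% held at least 1 match and 17 windows, 0.0766%, held at least 3. Peaks covered 242 to 250 of these bases in the 16 libraries for YAP1, with the match at -162 in all 16. For CCN2 they covered 135 to 209 bases in 7 libraries, with the matches at -104 and -95 in all 7 and the match at -169 in 2. A match is a description of the letters and the lists report RNA, so no binding was measured.

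**Figure D4:**
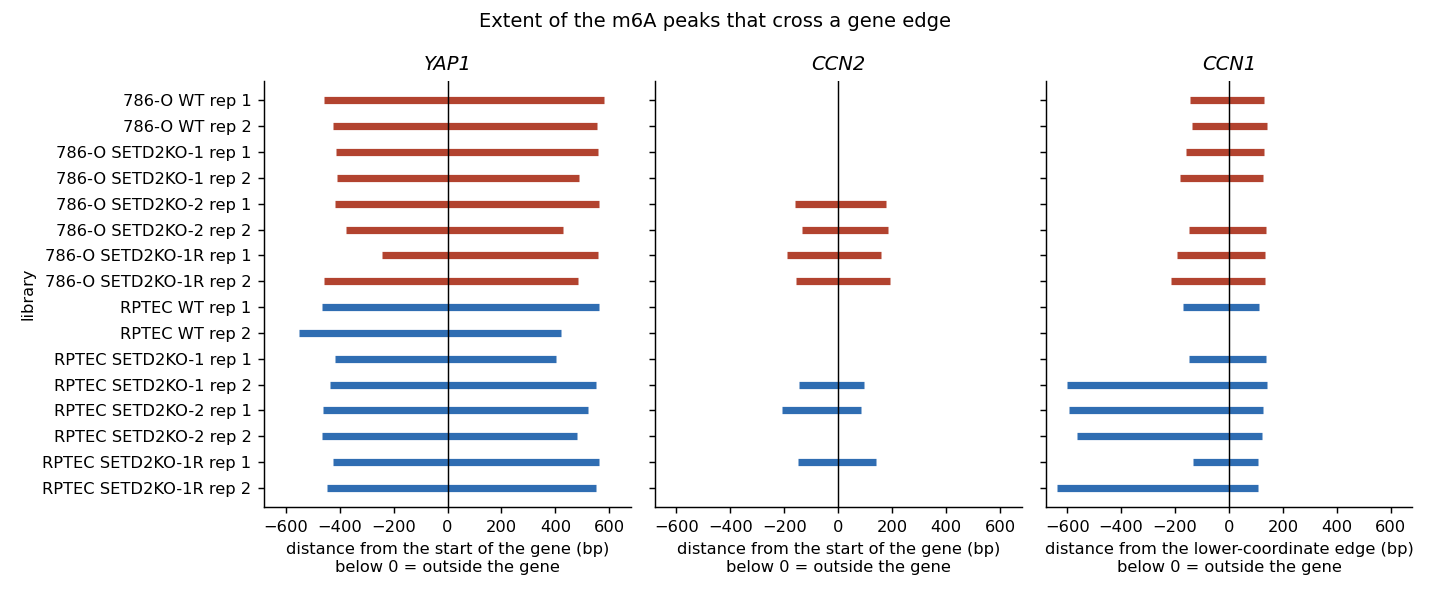
Extent of each m6A peak that crosses the start of YAP1, the start of CCN2 or the lower-coordinate edge of CCN1 (x axis, distance from that edge in bp, below 0 outside the gene) in each of 16 libraries (rows; 786-O red, RPTEC blue). YAP1 has a peak in all 16 rows, CCN2 in 7 and CCN1 in 14, and 4 RPTEC peaks of CCN1 reach 562 to 639 bp beyond the gene.

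The comparison of SETD2KO with SETD2-expressing libraries asked whether m6A calls in these genes followed SETD2. In peak number, the groups overlapped for all 9 genes with a peak in 786-O and all 10 in RPTEC. Among all genes, non-overlapping groups with more peaks in SETD2KO made up 1.52% in 786-O and 1.01% in RPTEC, and with fewer peaks 0.901% and 1.41%. With 4 libraries against 4 the smallest p is 0.0286. No gene of 12428 in 786-O or 12183 in RPTEC passed the exact permutation test after adjustment, in peak number or rank. An adjusted p under 0.05 would need most genes to reach that floor, so passing was almost out of reach. The lack of passing genes therefore does not show that calls were independent of SETD2. At an unadjusted p under 0.05 there were 301 genes (2.42%) in 786-O and 295 (2.42%) in RPTEC by peak number.

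In peak number, WWTR1 had the lowest p of the 10 genes in both cell lines. In 786-O it had 5, 5, 5 and 6 peaks with SETD2KO and 3, 5, 3 and 2 with SETD2 expressed, a mean of 5.25 ± 0.5 against 3.25 ± 1.26 (SD, n = 4 each; exact permutation p = 0.114). In RPTEC it had 4, 3, 4 and 4 against 6, 6, 3 and 7, a mean of 3.75 ± 0.5 against 5.5 ± 1.73 (exact permutation p = 0.143). In the upper 50% of peaks by score, and with equal numbers of peaks per list, the 786-O difference of 2 peaks became 1. The groups overlapped in both cell lines, and the difference between cell lines was not tested.

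By best rank, 1 gene separated the groups in each cell line. LATS1 in 786-O ranked 58.5, 70.4, 65.7 and 79.1 in SETD2KO and 81.7, 80.9, 79.9 and 87.5 in SETD2-expressing libraries, a mean of 68.4 ± 8.65 against 82.5 ± 3.44 (SD, n = 4 each; exact permutation p = 0.0286, adjusted p = 0.611). The nearest libraries of the 2 groups were 79.1 and 79.9. In RPTEC the LATS1 means were 78.5 ± 8.98 and 80.0 ± 6.74 and the groups overlapped. TEAD1 in RPTEC ranked 93.4, 93.6, 93.4 and 81.1 in SETD2KO and 95.1, 95.7, 96.1 and 97.8 in SETD2-expressing libraries, a mean of 90.4 ± 6.17 against 96.2 ± 1.16 (exact permutation p = 0.0286, adjusted p = 0.7). The low library, SETD2KO-2 replicate 2, came from the shortest list, with 19249 peaks, while the lowest TEAD1 rank in 786-O, 82.2 in SETD2KO-2 replicate 1, came from the longest, with 39670. Neither gene passed after adjustment, which so few libraries put almost out of reach. Over all genes, the share with non-overlapping ranks was 2.62% higher and 2.06% lower in SETD2KO in 786-O, and 1.99% higher and 2.09% lower in RPTEC.

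**Figure D5:**
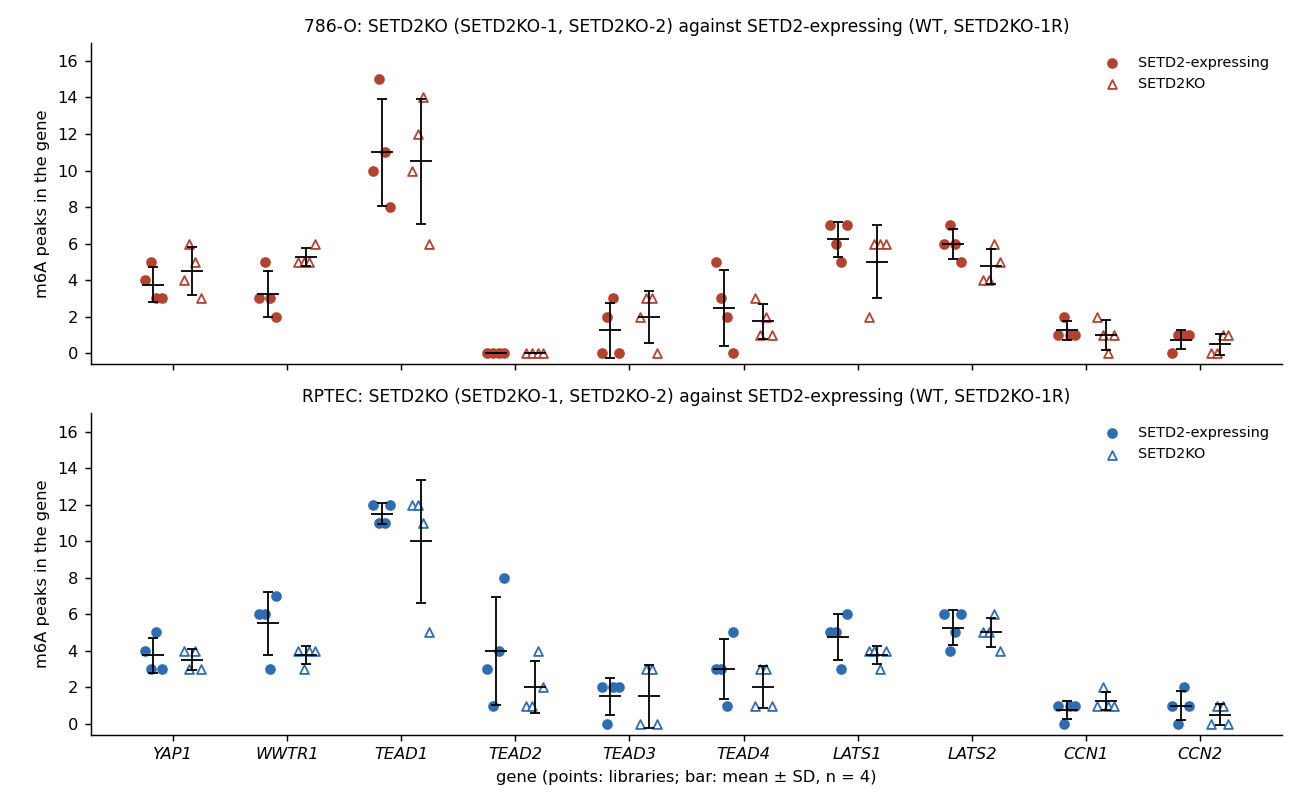
Number of m6A peaks in each gene (y axis) per library for SETD2-expressing (filled circles) and SETD2KO (open triangles) libraries of 786-O (upper panel) and RPTEC (lower panel), with bars at the mean ± SD (n = 4). The 2 groups overlap, or are both at 0, for each of the 10 genes in both cell lines.

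At the level of regions, 1 of the 89 member regions called in 786-O was confined to one SETD2 status. The region chr11:12936844-12937347 in TEAD1 was called in 4 of 4 SETD2-expressing libraries of 786-O, at ranks of 18.2, 33.1, 87.8 and 64.0, and in 0 of 4 SETD2KO libraries. In RPTEC it was called in 4 of 4 SETD2-expressing and 3 of 4 SETD2KO libraries. When the lists were limited to the upper 50% by score or to equal numbers of peaks, no member region had such a pattern. Of the 97 member regions called in RPTEC none was confined to one status. Over all regions, calls in all 4 SETD2KO and no SETD2-expressing library made up 0.478% in 786-O and 0.282% in RPTEC, and the reverse 0.15% and 0.214%.

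Around these 10 genes, 3 further lists were examined. The core kinases and scaffolds, 17 genes, all had a peak and 12 had one in all 16 libraries. Over all protein-coding genes 67.0% had a peak, and 34.5% of those had one in all 16. The lists were not matched to other genes in length. STK3, the MST2 kinase that activates LATS1 and LATS2, passed the test between cell lines. It had 5 to 11 peaks in 786-O and 3 to 5 in RPTEC, which met at 5, a mean of 8.5 ± 2.14 against 4.0 ± 1.07 (SD, n = 8 each; exact permutation adjusted p = 0.0252). Within 786-O, STK3 had 10, 10, 11 and 10 peaks in SETD2KO and 8, 8, 5 and 6 in SETD2-expressing libraries, which did not overlap (exact permutation p = 0.0286, adjusted p = 1.0), as for 1.52% of all genes with more peaks in SETD2KO. In RPTEC these groups overlapped. The difference between the cell lines did not pass with equal numbers of peaks per list, nor in the upper 50% by score. FRMD6 had fewer peaks in SETD2KO than in SETD2-expressing libraries of 786-O without overlap, 3.0 ± 1.41 against 7.0 ± 1.15 (exact permutation p = 0.0286, adjusted p = 1.0), as for 0.901% of all genes. It ranked lower in 786-O than in RPTEC (71.4 ± 18.9 against 93.7 ± 5.04, exact permutation adjusted p = 0.0336).

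Of 17 partners and upstream polarity genes, 14 had a peak and 7 had one in all 16 libraries, beside the shares above. None passed in peak number. VGLL3 and WTIP had a peak in no 786-O library and in 6 and 5 RPTEC libraries (exact permutation adjusted p = 0.0813 and 0.178). VGLL3 passed when either RPTEC WT library was left out. The protocadherins FAT1 and FAT4, with the most peaks, had means of 15 ± 2.2 and 8.75 ± 3.01 in 786-O and 13.1 ± 3.48 and 8.0 ± 2.98 in RPTEC. LIMD1 passed by rank only, 77.6 ± 14.2 in 786-O against 31.8 ± 27.1 in RPTEC (exact permutation adjusted p = 0.0336). All 19 genes of the YAP and TAZ target signature had a peak and 15 had one in all 16 libraries, beside the 67.0% and 34.5% above. Again none passed in peak number. FOXF2 had a peak in no 786-O library and in 6 RPTEC libraries, all but those of WT (exact permutation adjusted p = 0.0813). It passed when either RPTEC WT library was left out. ASAP1 had the most peaks, 20.2 ± 5.28 in 786-O and 14.2 ± 4.77 in RPTEC (exact permutation adjusted p = 0.228). RBMS3 followed with 13.1 ± 4.55 and 13.2 ± 4.46, and within 786-O had 16.5 ± 3.7 in SETD2KO and 9.75 ± 2.06 in SETD2-expressing libraries without overlap (exact permutation p = 0.0286, adjusted p = 1.0), as for 1.52% of all genes. IGFBP3 passed by rank, 94.1 ± 2.47 in 786-O against 52.9 ± 30.6 in RPTEC (exact permutation adjusted p = 0.0121). The RPTEC mean pools 28.0 ± 16.1 in SETD2KO and 77.9 ± 16.4 in SETD2-expressing libraries, which did not overlap (exact permutation p = 0.0286, adjusted p = 0.7), as for 2.09% of all genes ranked lower in SETD2KO. By peak number, the target signature had 2 of 19 genes with non-overlapping groups in RPTEC, both with fewer peaks in SETD2KO (1.41% over all genes), AXL (7.5 ± 1.73 against 12 ± 0.816) and NT5E (0.75 ± 0.5 against 3.25 ± 1.26), each at p = 0.0286 and adjusted p = 1.0 by exact permutation. FRMD6, VGLL3, WTIP, LIMD1, FOXF2, IGFBP3, AXL and NT5E were named after their values were seen.

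By best rank, the SETD2 groups also separated for a few genes of these lists, each at exact permutation p = 0.0286 and an adjusted p of 0.611 in 786-O or 0.7 in RPTEC, beside the 2.62% higher and 2.06% lower in SETD2KO over all genes in 786-O and 1.99% and 2.09% in RPTEC. In the core list PTPN14, a phosphatase that binds YAP and is also in the target signature, ranked 92.8 ± 1.11 in SETD2KO against 86.3 ± 3.87 in 786-O and 79.7 ± 3.38 against 87.9 ± 2.35 in RPTEC, opposite directions whose difference was not tested. STK4, the MST1 kinase, ranked 49.1 ± 3.75 in SETD2KO against 73.5 ± 16.1 in 786-O. WWC1, the scaffold KIBRA, ranked 77.7 ± 28.2 against 97.7 ± 1.31 in RPTEC. Among the partners FAT4 ranked 87.1 ± 3.05 against 62.6 ± 16.9 in 786-O. Of the targets, DOCK5 ranked 63.1 ± 10.6 against 83.3 ± 6.97 in 786-O, and AXL 92.5 ± 4.46 against 98.0 ± 0.932 in RPTEC. Among the kidney markers KRT18 ranked 93.7 ± 4.4 against 98.3 ± 0.787 in 786-O. These genes were named after their values were seen.

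The median difference between cell lines, 786-O minus RPTEC, was 0.0 peaks for the core list, 0.375 for the partners and 0.0 for the targets, beside 0.25 over all genes. The median difference of SETD2KO minus SETD2-expressing libraries was 0.25, 0.625 and 0.125 in 786-O, beside 0.0 over all genes. In RPTEC it was -0.75, 0.125 and -0.5, beside -0.25.

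Among 7811 genes called in at least 12 libraries, the peak numbers most like those of CCN1 over the 16 libraries were those of TREX1 (r = 0.743), ZSCAN25 (r = 0.74) and CAMK1 (r = 0.726). Those most like CCN2 were STAT5B (r = 0.853), TSPYL4 (r = 0.77) and RELCH (r = 0.758). These are the highest of many values, the peak numbers of CCN1 and CCN2 only run from 0 to 2, and the points share the length of the list they come from. They are given as a description.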

How the data were processed

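MeRIP-seq peaks of 16 immunoprecipitated libraries were analysed; the 16 matched inputs were not analysed here. According to the methods and the processing notes, the authors aligned reads with STAR to hg38, quantified them with HTSeq, applied scaling factors from spiked-in E. coli RNA, and used MACS2 to call peaks over input in each library. The deposited lists hold positions and a whole-number score per peak with no stated scale, used as a rank within a list. The depth of each library is unknown; the methods give only a minimum for all samples. Peaks were joined to RefSeq gene bodies (GRCh38.p14) by 1 bp. Peak numbers and best ranks were compared by two-sided exact permutation tests over libraries, calls and regions by Fisher's exact test, with Benjamini-Hochberg adjustment over all protein-coding genes or regions with a peak (Python 3.11.15, NumPy 2.4.6, SciPy 1.17.1, pandas 2.3.3). The genes and lists were chosen with earlier results of these data known. The list genes planned to be named were those past the test in peak number, otherwise the 2 with the most peaks. Further list genes were named after their values were seen, as stated where they are given. Replicate numbers were not used as pairs in the main tests. Correlations of replicate deviations between lines ran from -0.359 to 0.38 and were not tested. The code was tested on simulated data.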

Additional observations from a re-analysis of the deposited data

Results flagged for a closer look

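In 96 groups of 4 or 8 libraries, 21 values stood far from the rest by Dixon's criterion. Chance gives about 1 in 20, and with whole peak numbers a single step away from identical values is enough.

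In TEAD1, RPTEC SETD2KO-2 replicate 2 had 5 peaks against 11 to 12 in the other RPTEC libraries and a best rank of 81.1 against 93.4 or more. Its list was the shortest, with 19249 peaks. The best TEAD1 rank of 786-O SETD2KO-2 replicate 1 was 82.2 against 90.1 or more in the other 786-O libraries, and its list was the longest, with 39670 peaks. In WWTR1, that same library ranked 66.7 against 92.0 or more, and RPTEC SETD2KO-2 replicate 1 ranked 27.6 against 78.3 or more; 786-O SETD2KO-2 replicate 2 had 6 peaks against 5 in the other 786-O SETD2KO libraries, and RPTEC SETD2KO-1 replicate 2 had 3 against 4 in the other RPTEC SETD2KO libraries. In TEAD2, RPTEC SETD2KO-1R replicate 2 had 8 peaks against 1 to 4 in the other RPTEC libraries. In LATS1, 786-O SETD2KO-1 replicate 1 had 2 peaks against 5 to 7 in the other 786-O libraries, and RPTEC SETD2KO-2 replicate 1 had 3 against 4 in the other RPTEC SETD2KO libraries. The best LATS2 rank of RPTEC SETD2KO-1 replicate 2 was 85.3 against 95.3 to 96.8 in the other RPTEC SETD2KO libraries. RPTEC WT replicate 2 had 0 peaks in TEAD3 against 2, and 0 in CCN1 against 1, in the other SETD2-expressing RPTEC libraries. CCN1 had 2 peaks in 786-O WT replicate 2 against 1 in the other SETD2-expressing 786-O libraries, and 2 in RPTEC SETD2KO-1 replicate 2 against 1 in the other RPTEC SETD2KO libraries. CCN2 had 0 in 786-O WT replicate 1 against 1 in the other SETD2-expressing 786-O libraries.

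By best rank, every SETD2KO library lay above every SETD2-expressing library for PTPN14 in 786-O and below in RPTEC. The difference, SETD2KO minus SETD2-expressing, was 14.7 percentile points higher in 786-O than in RPTEC, and this was not tested.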

How the results depend on the processing

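TEAD2 had more peaks in RPTEC in all alternatives run, with differences, 786-O minus RPTEC, from -3.29 to -1.5. Among the upper 50% of peaks by score the difference was -1.5 peaks (exact permutation adjusted p = 0.127) and -57.1 rank points (adjusted p = 0.101), so that 0 members passed by peaks, rank or calls, and 129, 386 and 73 protein-coding genes instead of 719, 842 and 150. Neither the pathway lists nor the TEAD1 region gave a call there (0 each), and 3 member regions in place of 6 were in every library. With equal list lengths of 19249 peaks, TEAD2 passed, 430 genes passed by peaks and 544 by rank, and the pathway lists and the TEAD1 region gave 0. Counting base pairs covered, 1525 genes passed, among them 3 genes of the pathway lists. With lines as units, 0 members, 0 list genes and 0 genes passed by peaks or rank. In this design of 4 against 4 the smallest p is 0.0286, so passing was almost out of reach.

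With each library left out in turn, 648 to 929 genes passed by peaks, 602 to 838 by rank and 150 to 168 by calls, always with 1 member, TEAD2. No member passed by SETD2 status (0 in each cell line), where so few libraries put passing almost out of reach. No member region passed between cell lines (0). List genes that passed ranged from 1 to 3, with FOXF2 and VGLL3 added without RPTEC WT replicate 1 or replicate 2, and IGFBP3 without 786-O SETD2KO-2 replicate 2 or 786-O SETD2KO-1R replicate 2. Regions in every library ranged from 6 to 7. Regions confined to one SETD2 status ranged from 1 to 2. The added one was in CCN2 without RPTEC WT replicate 2, in WWTR1 without RPTEC SETD2KO-1 replicate 1 and in TEAD1 without RPTEC SETD2KO-2 replicate 2. The labels do not say whether libraries with the same replicate number belong together. With the replicate number as a block, TEAD2 passed (exact permutation adjusted p = 0.0195), as did 673 genes by peaks and 770 by rank.

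Of 478 single-gene differences between cell lines, 472 kept to within 1 SD or kept their call, 2 moved, 4 lost the call (TEAD2 above) and 22 turned sign, all without a call. Of 946 between SETD2 groups, 935 stayed within 1 SD, 11 moved and 46 turned sign, none called. The cause of these changes was not tested beyond fewer peaks or units entering. The lists give no strand, exons or reads, so changes in m6A level, RNA level and overlapping transcripts cannot be told apart.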
